A study of Mus musculus with 94 samples.

Results

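The genes examined here encode the surface proteins by which single mouse blood stem cells were sorted, together with 2 further surface genes that are commonly used to subdivide such cells. They were chosen by name, and all 7 were found among the 13244 genes of the deposited table. Kit (c-Kit), Ly6a (Sca-1), Slamf1 (Cd150) and Ptprc (Cd45) encode the antigens required by the gate, Cd48 encodes an antigen the gate excluded, and Cd34 and Flt3 were not part of the gate. The series compared haematopoietic stem cells labelled Ski-KO with cells labelled Ski-WT, Ski being a transcriptional co-repressor of TGF-beta signalling. All cells were C57BL/6 and came from fetal liver grafts that had spent 6 months in recipient mice. Bone marrow of crushed hindlimbs was enriched for c-Kit with magnetic beads, and Cd45.2-positive SLAM cells were sorted from it and captured one by one on a microfluidic chip. The Ski allele, the way Ski was removed and the recipient strain are not given in the sources used here.

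The data were 94 cells, of which 46 carried the Ski-KO label and 48 the Ski-WT label. The labels name no animal or donor, so each genotype counted as 1 sample, cells were not treated as replicates, and no test between genotypes was possible. The labels of the Ski-KO cells begin with 051716 in 27 cells and with 051816 in 19, and those of all Ski-WT cells begin with 061016. Genotype and label prefix therefore cannot be told apart, and the 2 Ski-KO prefixes are the only cells with a common genotype label and different prefixes. Values are log2(TPM + 1), where TPM, transcript abundance scaled to a fixed total per cell, takes account of transcript length, so that levels can be set side by side between genes. TPM keeps no record of read depth, which is unknown. Each share of cells is given with its exact (Clopper-Pearson) 95% interval, which covers counting error only. Ski itself was above 0 in 9 cells with the Ski-KO label and 10 with the Ski-WT label, and so could not check the labels. Of 40 measured genes on 9 lists of markers of other cell types, 8 were detected in 25% or more of the cells and 14 were at 0 in all of them. Cells had a median of 3248 genes above 0 in prefix 051716, 3679 in prefix 051816 and 3670.5 in Ski-WT.

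The SLAM gate separates stem cells from their first descendants by antibodies against a handful of surface proteins. c-Kit is the receptor tyrosine kinase for stem cell factor, and Sca-1 is a small lipid-anchored protein that marks stem and multipotent cells in C57BL/6 marrow. Cd150 and Cd48 are related members of the SLAM family of immunoglobulin-like receptors, and in bone marrow the first is kept by stem cells while the second appears on multipotent and committed progenitors. Cd45 is the receptor phosphatase found on nearly all nucleated blood cells, and its Cd45.2 form serves to tell grafted from host cells. Cd34 is a sialomucin and Flt3 a receptor tyrosine kinase related to c-Kit. Both are used to separate long-term stem cells, which are low for them in adult mice, from multipotent progenitors.

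Promoters of 6 of the 7 genes were matched by symbol to RefSeq sequences of build GRCm38.p6, a later build than the mm9 named for the expression table. No promoter sequence was available for Ly6a. Of the 6, 4 are shown because their genes carry contrasts described below. Cd48 and Slamf1 are shown because they lie almost side by side on chromosome 1, with Tma7-ps the gene listed between them among protein-coding genes of RefSeq, and were selected in opposite directions by the gate. Cd34 and Flt3 are shown because both were higher in one Ski-KO prefix than in the other. Each sequence runs 5' to 3' on the strand of its gene, from 250 bases before to 50 bases after the transcript start. Capitals mark matches on either strand to the Smad box CAGAC, the Runx motif TGTGGT and the Gata motif AGATAA, none of which contains another.
Cd48, chr1:171681742-171682041, + strand: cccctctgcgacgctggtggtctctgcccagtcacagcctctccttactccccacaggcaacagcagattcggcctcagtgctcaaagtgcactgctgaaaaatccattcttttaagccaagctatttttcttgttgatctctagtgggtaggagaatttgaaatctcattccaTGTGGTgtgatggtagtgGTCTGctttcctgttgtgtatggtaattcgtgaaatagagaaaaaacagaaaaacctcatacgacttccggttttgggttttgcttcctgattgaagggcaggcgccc
Slamf1, chr1:171766882-171767181, + strand: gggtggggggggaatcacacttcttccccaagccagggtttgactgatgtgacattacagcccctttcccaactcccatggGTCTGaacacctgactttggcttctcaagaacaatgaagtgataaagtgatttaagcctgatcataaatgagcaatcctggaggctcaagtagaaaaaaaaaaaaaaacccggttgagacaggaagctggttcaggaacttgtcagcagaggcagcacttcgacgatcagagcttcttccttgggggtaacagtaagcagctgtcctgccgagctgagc
Cd34, chr1:194938571-194938870, + strand: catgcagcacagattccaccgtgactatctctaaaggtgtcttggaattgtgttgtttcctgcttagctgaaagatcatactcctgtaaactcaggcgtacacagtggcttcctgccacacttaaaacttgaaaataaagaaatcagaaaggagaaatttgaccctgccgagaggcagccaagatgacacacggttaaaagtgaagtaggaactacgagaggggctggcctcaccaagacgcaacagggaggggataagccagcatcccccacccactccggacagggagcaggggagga
Flt3, chr5:147400440-147400739, - strand: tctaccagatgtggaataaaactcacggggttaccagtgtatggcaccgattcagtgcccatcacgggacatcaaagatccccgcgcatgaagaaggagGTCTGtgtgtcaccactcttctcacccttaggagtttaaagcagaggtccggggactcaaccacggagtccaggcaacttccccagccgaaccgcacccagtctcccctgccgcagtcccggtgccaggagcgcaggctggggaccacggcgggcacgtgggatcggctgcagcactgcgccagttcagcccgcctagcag

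The Smad box was found 1 time each in the windows of Cd48, Slamf1 and Flt3 and 0 times in that of Cd34. Among all 32851 promoter windows of the same length, 49.6% held this motif, so a match is common. The Runx motif, present in 16.8% of all windows, occurred in that of Cd48, and the Gata motif, present in 11.2%, in none of the 4. The GC content of the Flt3 window was 61%, that of the Slamf1 window 49% and that of the Cd48 window 47.3%, against a median of 52.7% over all windows. These matches describe letters in a window and were not tested against the expression values.

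Detection of the gate transcripts ranged from nearly every cell to nearly none, although every cell had been chosen by the proteins. Kit was above 0 in 92 of 94 cells (97.9%, interval 92.5% to 99.7%). Ptprc followed with 79 cells (84.0%, interval 75.05% to 90.8%), Cd34 with 75 (79.8%, interval 70.2% to 87.4%) and Ly6a with 68 (72.3%, interval 62.2% to 81.1%). The intervals of these last 3 genes overlapped. All 3 were measured in the same cells, so overlap alone does not settle their order, which was not tested and is not taken as firm. Flt3 was found in 26 cells (27.7%, interval 18.9% to 37.8%) and Slamf1, although its protein was required, in only 20 (21.3%, interval 13.5% to 30.9%). Cd48 was above 0 in 1 cell.

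**Figure D1:**
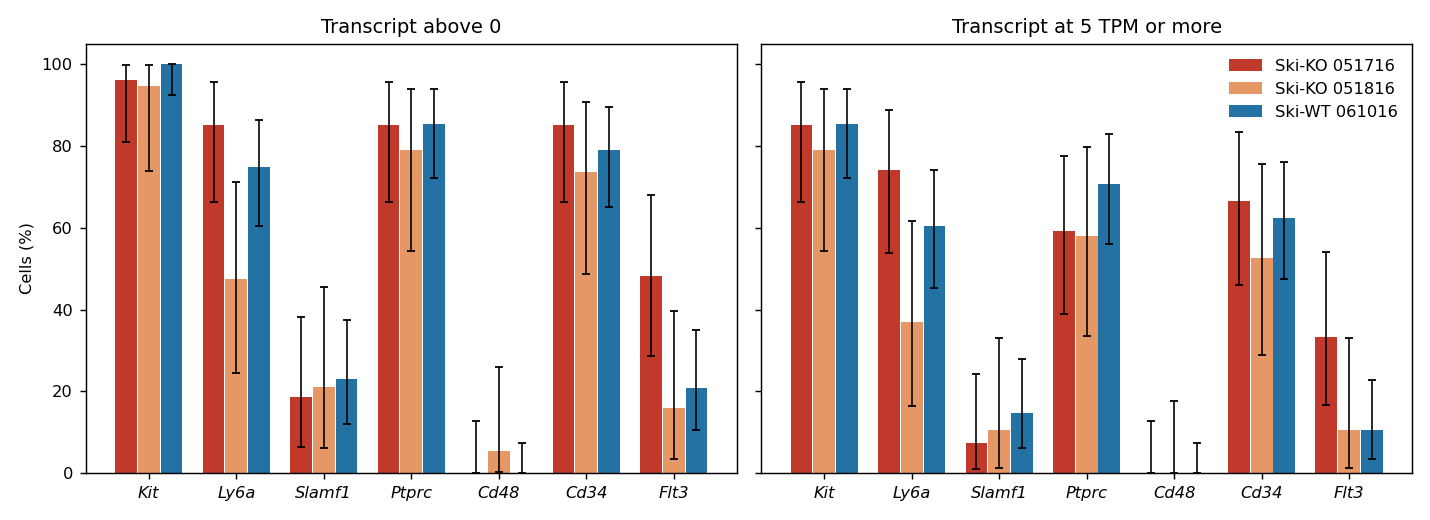
Share of cells (vertical axis, percent) in which each gene (horizontal axis) was above 0 (left) or at 5 TPM or more (right), with bars for the 3 label prefixes and error bars for exact 95% binomial intervals. Kit was the gene found in most cells of every prefix, Slamf1 lay between 18.5% and 22.9% above 0, and Ly6a and Flt3 differed most between the Ski-KO prefixes.

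Many low values lay between 0 and 5 TPM, a level at which a value can rest on very few reads. Of the cells above 0, 13 of 92 were under 5 TPM for Kit, 18 of 79 for Ptprc, 17 of 75 for Cd34 and 12 of 68 for Ly6a. For the scarce genes the proportion was larger, with 9 of 20 cells for Slamf1 and 10 of 26 for Flt3. At 5 TPM or more, Kit was found in 79 cells (84.0%), Ptprc in 61 (64.9%), Cd34 in 58 (61.7%), Ly6a in 56 (59.6%), Flt3 in 16 (17.02%) and Slamf1 in 11 (11.7%).

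The order by level was not the order by detection. Ly6a had the highest mean of the 7, 527 TPM, and ranked 284 of the 12284 genes above 0 in any cell. Cd34 (235 TPM), Kit (216 TPM) and Ptprc (193 TPM) were close to each other, with ranges over cells that all ran from 0 to at least 1327 TPM. Slamf1 (38.7 TPM) and Flt3 (31.96 TPM) lay lower, and Cd48 had a mean of 0.0393 TPM. Ly6a was thus the most abundant of these transcripts on average but was at 0 in 26 cells, whereas Kit, with a lower mean, was at 0 in 2. By median over all cells, Ly6a stood at 81.1 TPM, Kit at 67.98 TPM, Ptprc at 32.03 TPM and Cd34 at 20.7 TPM.

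**Figure D2:**
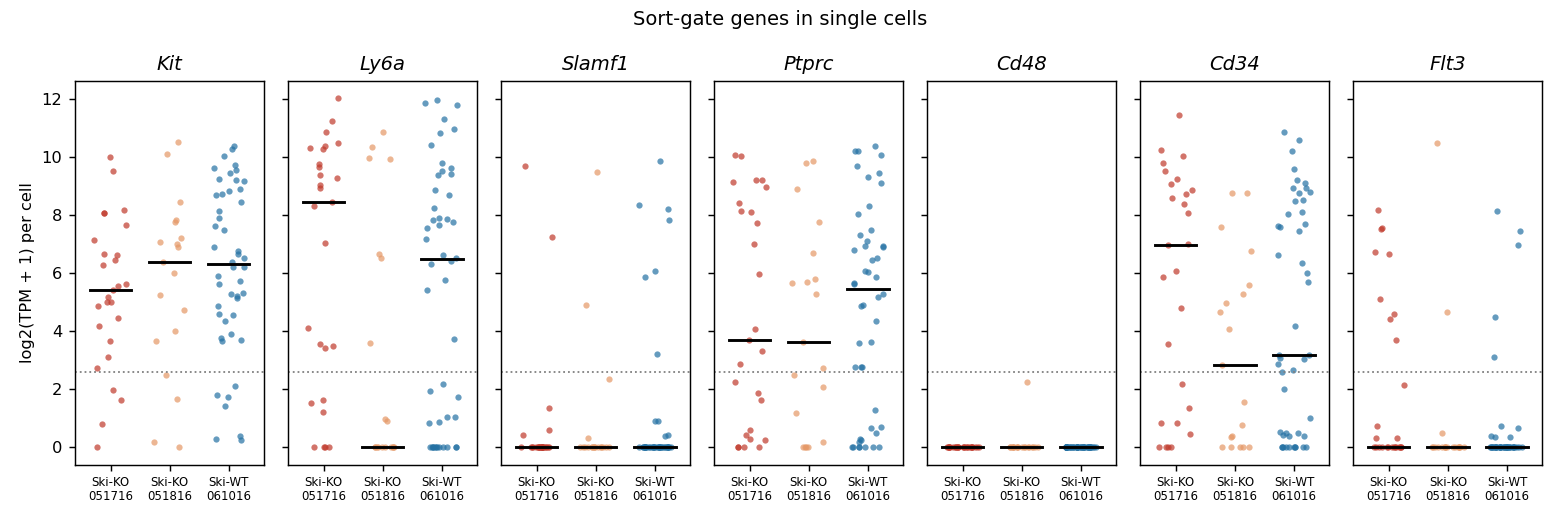
Levels of the 7 genes cell by cell. The vertical axis gives log2(TPM + 1), the horizontal axis separates the label prefixes, points are cells, black lines are medians and the dotted line marks 5 TPM. Ly6a runs from 0 to 12.01 with cells at levels in between, and has a median of 0 in prefix 051816, and Cd48 is at 0 in all but 1 cell.

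Kit, the receptor for stem cell factor, was the most evenly found member. In prefix 051716 its log2(TPM + 1) ran from 0 to 10.01 with a median of 5.42, and in prefix 051816 from 0 to 10.5 with a median of 6.38. Ski-WT values lay between 0.24 and 10.4, with a median of 6.30. The 3 ranges overlapped over almost their whole length. The share at 5 TPM or more was 85.2%, 78.9% and 85.4% in the same order. A value of 8 or more was reached by 5 of 27, 3 of 19 and 16 of 48 cells.

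Ptprc, which encodes Cd45, was found in 23 of 27, 15 of 19 and 41 of 48 cells of prefix 051716, prefix 051816 and Ski-WT. Its median log2(TPM + 1) was 3.69 in prefix 051716 (0 to 10.1), 3.64 in prefix 051816 (0 to 9.85) and 5.45 in Ski-WT (0 to 10.4). Gene-level values do not separate the Cd45.2 form from other alleles or splice forms. The 15 cells at 0 for Ptprc came from a sort for Cd45.2-positive cells, and a value of 0 does not separate an absent transcript from a missed one.

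Slamf1, which encodes the Cd150 that defines the gate, was found in a similar share of every prefix, with wide and overlapping intervals, and at a high level in few cells. It was above 0 in 5 of 27 cells of prefix 051716 (18.5%, interval 6.30% to 38.1%) and in 4 of 19 of prefix 051816 (21.1%, interval 6.05% to 45.6%). Among Ski-WT cells the count was 11 of 48 (22.9%, interval 12.03% to 37.3%). The 5 cells of prefix 051716 held 829, 150, 1.56, 0.49 and 0.35 TPM, and the 4 cells of prefix 051816 held 718, 28.8, 4.15 and 0.24 TPM. In the Ski-WT cells, 7 were at 8.30 TPM or more, up to 925 TPM, and the other 4 were under 1 TPM. The 5 highest cells together carried 85.0% of all Slamf1 TPM, against 78.4% for Flt3, 36.1% for Ly6a and 30.4% for Kit. Flt3, like Slamf1, was found in few cells. Its mean level ranked 3847 of 12284 genes but its share of cells above 0 ranked 6095. Cells with Slamf1 had a median of 3772.5 genes above 0, and cells without it 3439.

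Cd48, the excluded antigen, was close to absent as transcript too. The 1 cell above 0 belonged to prefix 051816 and held 3.69 TPM. Slamf1 was above 0 in that cell, whereas Ly6a and Ptprc were at 0. At 5 TPM or more it was found in 0 of 94 cells, which allows a share of up to 3.19% by the limit of 3 counts and 3.85% by the exact interval. Both limit the share of cells with a value at that level, not of cells expressing the gene, since depth is unknown. The 2 neighbouring genes of the SLAM family thus both lay at 0 in most cells, although the gate required the protein of one and excluded that of the other.

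Ly6a, which encodes Sca-1, was the member whose detection differed most between the Ski-KO prefixes. In prefix 051716, 23 of 27 cells were above 0 (85.2%, interval 66.3% to 95.8%), with a median log2(TPM + 1) of 8.43 and a highest value of 12.01. In prefix 051816, 9 of 19 cells were above 0 (47.4%, interval 24.4% to 71.1%), with a median of 0 and a highest value of 10.8. The Ski-WT cells lay between them, with 36 of 48 above 0 (75.0%, interval 60.4% to 86.4%), a median of 6.46 and a highest value of 11.95. At 5 TPM or more the counts were 20 of 27, 7 of 19 and 29 of 48. A value of 8 or more was held by 15 of 27, 4 of 19 and 15 of 48 cells.

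The groups overlapped fully for Ly6a, since each contained cells at 0 and cells above 10. Among cells above 0 the median was 9.04 in prefix 051716, 6.64 in prefix 051816 and 7.80 in the Ski-WT cells. The number of genes detected differed in opposite directions with Ly6a. Cells without Ly6a had a median of 2913.5 genes above 0 in prefix 051716, against 3297 in cells with it, and 3564.5 against 3727 in prefix 051816. Among Ski-WT cells the values were 3821.5 without it and 3517.5 with it. In the transcript sequences of GENCODE M21, 10.04% of the 50-base windows of the longest Ly6a transcript also occurred in Ly6c1, Ly6i, Ly6c2 or I830127L07Rik, while the other 6 members shared 0 windows with any gene. The table listed Ly6c1 and Ly6i above 0 in 1 Ski-WT cell each and Ly6c2 in 0 cells. Ly6e, another gene of the family, was found in 25 of 27, 19 of 19 and 47 of 48 cells, with means of 803, 912 and 1007 TPM.

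Cd34 followed the same order as Ly6a. Its median log2(TPM + 1) was 6.98 in prefix 051716 (0 to 11.4), 2.84 in prefix 051816 (0 to 8.76) and 3.17 in Ski-WT (0 to 10.8). The shares of cells above 0 were closer, at 85.2%, 73.7% and 79.2%, so the prefixes differed more in level than in detection. Values of 8 or more were found in 12 of 27, 2 of 19 and 14 of 48 cells. Mean Cd34 was 374 TPM, 69.7 TPM and 222 TPM in the same order.

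Flt3, found on multipotent progenitors, was above 0 in 13 of 27 cells of prefix 051716 (48.1%, interval 28.7% to 68.1%). In prefix 051816 it was above 0 in 3 of 19 cells (15.8%, interval 3.38% to 39.6%), and among Ski-WT in 10 of 48 (20.8%, interval 10.5% to 34.99%). At 5 TPM or more the counts were 9, 2 and 5. The highest values were 288 TPM in prefix 051716, 1417 TPM in prefix 051816 and 282 TPM in Ski-WT. The single cell at 1417 TPM held 47.2% of all Flt3 TPM and turned the order of the linear means, which were 35.2 TPM in prefix 051716 and 75.9 TPM in prefix 051816. Without that cell the log2 ratio of mean TPM between the prefixes was 3.94, against -1.08 with it.

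Difference values put these levels beside all other genes. Over the 6861 genes detected in 25% or more of any prefix's cells, the mean log2(TPM + 1) of prefix 051716 differed from that of prefix 051816 by 1 or more for 24%. It was higher by that much for 8.54% and lower for 15.4%. Of the 5 members that passed this filter, 3 were higher in prefix 051716 by 1 or more and 0 were lower. Ly6a had a difference of 3.32, the third highest of all 6861 genes, Cd34 had 2.35 at rank 21 and Flt3 1.32 at rank 252. Flt3 passed the filter only through its share of cells above 0 in prefix 051716. That share therefore had to be higher there, which favours a higher mean log2 value, so the count does not bear on Flt3. Ptprc (0.47) and Kit (-0.31) lay within the bulk of all genes, whose median was -0.04. Slamf1 (-0.18) and Cd48 (-0.12) were too scarce for the filter. Both prefixes carry the same genotype label, and the labels do not say how they differ.

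**Figure D3:**
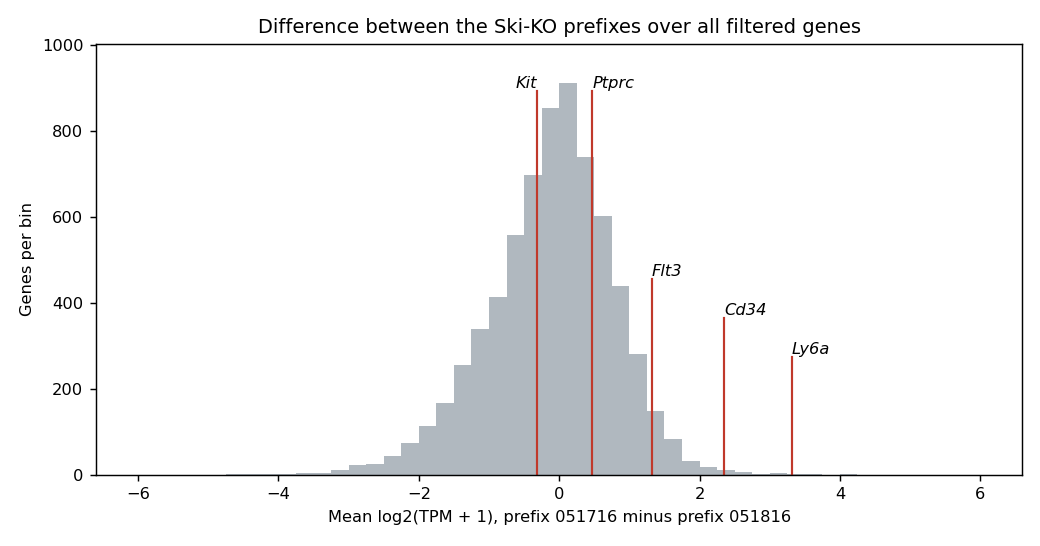
Number of genes (vertical axis) per bin of 0.25 in the difference of mean log2(TPM + 1) between Ski-KO prefixes 051716 and 051816 (horizontal axis), over 6861 genes. Red lines mark the 5 members that passed the filter. Kit and Ptprc lie in the middle of the distribution, and Ly6a, at 3.32, lies in its right tail.

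The positions in the cell labels differed between prefixes as well. All 19 cells of prefix 051816 carried positions in columns 1 to 3, while those of prefix 051716 ran from column 1 to 12 and the Ski-WT positions from 1 to 9. Ly6a was above 0 in 11 of 17 Ski-WT cells of columns 1 to 3 (64.7%) and in 25 of 31 Ski-WT cells of the other columns (80.6%). For Cd34 the order was the other way, with 14 of 17 (82.4%) and 24 of 31 (77.4%), and Flt3 was found in 4 of 17 and 6 of 31. Within columns 1 to 3 the difference between the Ski-KO prefixes was 2.01 for Ly6a, 5.30 for Cd34 and 1.12 for Flt3, but prefix 051716 then held 3 cells. On the same cells Ptprc had 3.47, more than Ly6a, against 0.47 over all columns. Slamf1 had 1.97 against -0.18, and Kit -0.54 against -0.31. The part of position in these differences was not tested further.

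Between pooled Ski-KO and Ski-WT cells, each of the 7 genes differed by less than 1 in mean log2(TPM + 1), but not by every summary. By medians over cells, Ly6a had -2.62, Ptprc -1.78, Cd34 1.70 and Flt3 0, and as the log2 ratio of mean TPM Flt3 had 1.95. Of the same 6861 genes, 12.7% differed between genotype labels by 1 or more, 1.89% being higher and 10.8% lower in the Ski-KO cells. Of the 5 members that passed the filter, 0 did so. Kit had a lower mean in both Ski-KO prefixes than in Ski-WT, with a pooled difference of -0.72, -0.85 in prefix 051716 and -0.54 in prefix 051816. Its pooled value stayed below 0 under all alternatives run, but its size did not hold. It was -0.15 after quantile normalization, -0.38 with the number of genes above 0 as covariate and -1.15 against Ski-WT columns 1 to 3. The median difference over the 6861 genes was -0.17. Flt3 had 0.92 pooled, 1.46 in prefix 051716 and 0.14 in prefix 051816. For Ly6a the pooled difference of -0.26 averaged 1.11 in prefix 051716 and -2.21 in prefix 051816, and for Cd34 the pooled 0.21 averaged 1.18 and -1.17. Ptprc had -0.43 pooled, -0.24 and -0.71, and its pooled sign turned after quantile normalization (0.23) and against the Ski-WT cells of columns 1 to 3 alone (0.33). In the latter comparison the pooled signs of Ly6a (0.73) and Slamf1 (0.28) turned too, and that of Ly6a also turned over cells above 0 alone (0.18). Of 8 markers of other cell types above 0 in 25% of all cells, 1 was lower and 1 higher in Ski-KO by 1 or more. Under that filter, 12.5% of all genes were lower and 2.25% higher. The lower one was Prtn3 of the granulocyte and monocyte list (-1.72), whereas Lyz2 of that list had 0.22. The higher one was Hbb-b2 of the erythroid list (1.02), whereas Car2 of that list had -0.28. Mean log2(TPM + 1) of Hbb-b2 was 2.77 in prefix 051716, 1.25 in prefix 051816 and 1.12 in Ski-WT. The part of these markers in the member differences was not tested. Slamf1 had -0.29 and Cd48 0.05. The comparisons of both prefixes use the same Ski-WT cells.

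Transcripts of all 4 required antigens were rarely seen together. Kit, Ly6a, Slamf1 and Ptprc were all above 0 in 11 of 94 cells (11.7%, interval 5.99% to 19.97%), 6 labelled Ski-KO and 5 labelled Ski-WT. Slamf1 was above 0 in 20 cells, so this count could not exceed 20. It was not compared with a value derived from the single-gene shares. At 5 TPM or more the count was 5 cells (5.32%, interval 1.75% to 11.98%). The most common pattern was Kit, Ly6a and Ptprc without Slamf1, in 46 cells, followed by Kit and Ptprc alone in 13. Further patterns were all 4 genes in 11 cells, Kit and Ly6a in 9, and Kit, Slamf1 and Ptprc in 7. No cell lacked all 4 transcripts above 0, and 2 cells lacked all 4 at 5 TPM or more.

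**Figure D4:**
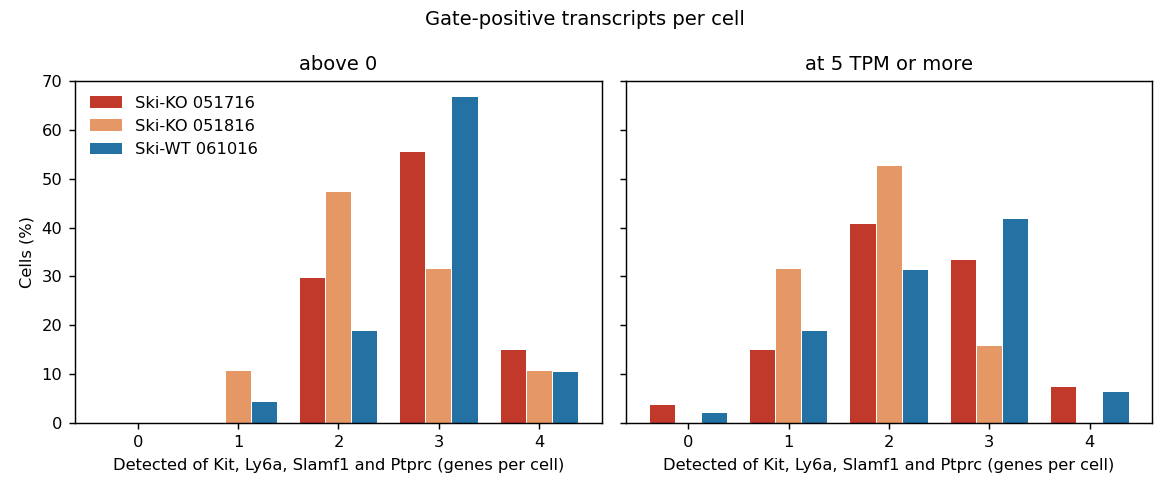
Share of cells (vertical axis, percent) by the number of the 4 gate-positive genes detected per cell (horizontal axis), above 0 (left) and at 5 TPM or more (right), for the 3 label prefixes. Above 0, 3 genes was the most common number in prefix 051716 (55.6%) and the Ski-WT cells (66.7%), and 2 genes in prefix 051816 (47.4%).

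The prefixes also differed in these patterns, mainly through Ly6a. Kit and Ptprc without Ly6a or Slamf1 were found in 3 of 27 cells of prefix 051716, 6 of 19 of prefix 051816 and 4 of 48 Ski-WT cells. Kit, Ly6a and Ptprc, with or without Slamf1, were above 0 together in 18 of 27 (66.7%), 8 of 19 (42.1%) and 31 of 48 (64.6%). Without regard to Slamf1, Kit and Ly6a together were at 5 TPM or more in 18 of 27, 4 of 19 and 25 of 48 cells.

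Counted above 0, the number of gate transcripts did not rise evenly with the number of genes detected. Cells with 2 of them had a median of 3196 genes above 0, cells with 3 a median of 3727 and cells with all 4 a median of 3550. The 4 cells with a single gate transcript had a median of 3628. Counted at 5 TPM or more, the median rose from 3211.5 genes in the 2 cells with 0 gate transcripts to 3364 with 1. It was 3572.5 with 2, 3762 with 3 and 3485 in the 5 cells with all 4. The median over the cells of prefix 051716, where Ly6a was found most often, was 3248 genes, below the 3679 of prefix 051816.

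Cd34 and Flt3, both outside the gate, were also compared by co-detection. Cd34 was above 0 in 24 of the 26 cells with Flt3 (92.3%) and in 51 of the 68 cells without it (75.0%). Within prefixes, these counts were 12 of 13 against 11 of 14 in prefix 051716, 3 of 3 against 11 of 16 in prefix 051816 and 9 of 10 against 29 of 38 in the Ski-WT cells. The direction was the same in every prefix, on few cells. Cd34, Flt3 and Ly6a were above 0 together in 11 of 27 cells of prefix 051716, 2 of 19 of prefix 051816 and 5 of 48 Ski-WT cells.

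Slamf1 showed the reverse pattern with Cd34 in the Ski-WT cells. There, Cd34 was found in 6 of 11 cells with Slamf1 (54.5%) and in 32 of 37 without it (86.5%), and in prefix 051816 in 1 of 4 and 13 of 15. In prefix 051716 it was found in 5 of 5 and 18 of 22, so the direction was not shared. Ly6a likewise was found in 5 of 11 Ski-WT cells with Slamf1 and 31 of 37 without it, but in 4 of 5 and 19 of 22 in prefix 051716 and 2 of 4 and 7 of 15 in prefix 051816. Kit and Ly6a, the pair that defines the stem and progenitor gate, had a Pearson correlation of -0.11 over the 94 cells after centring on prefix means. The highest value among pairs of members was 0.28, for Cd34 and Flt3. Such weak values in sparse data are a description only, and the cells of a genotype label count as 1 sample.

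Relatives and partners of the members were taken from 7 lists. Of the list of multipotent progenitor surface genes, 3 of 8 were detected in 25% or more of all cells, namely Flt3, Cd34 and Cd27. All 3 had a higher mean in prefix 051716 than in prefix 051816 by 1 or more, but Flt3 and Cd34 are members described above, and Flt3 reached 25% of all cells only through prefix 051716, so nothing is read from this count. Over the 5465 genes detected in 25% or more of all cells, 9.37% were higher and 16.9% lower in prefix 051716 by 1 or more, and 2.25% were higher and 12.5% lower in the Ski-KO cells. Cd27, a receptor of the tumour necrosis factor family, was above 0 in 22 of 27, 12 of 19 and 28 of 48 cells, and its difference between the prefixes was 2.56. Il7r and Csf1r, which mark lymphoid and monocytic progenitors, were at 0 in all 94 cells, and Cd33 was above 0 in 2. The summed level of the list had a median of 589 TPM per cell in prefix 051716 (0.38 to 2801 TPM), 48.1 TPM in prefix 051816 (0 to 3313 TPM) and 286 TPM in the Ski-WT cells (0 to 4826 TPM). This sum includes the members Cd34 and Flt3, whose levels are given above, so it is not read as a separate result. The share of such progenitors among the sorted cells was not tested.

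Within the SLAM family, Cd84 was found far more often than the genes used for sorting. It was above 0 in 65 of 94 cells, in 15 of 27, 13 of 19 and 37 of 48 by prefix, and had a mean of 98.9 TPM. Slamf8 was above 0 in 24 cells, Cd244 in 4 and Ly9 in 2, while Slamf6, Slamf7 and the adaptor gene Sh2d1b1 were at 0 in all cells. Of 9 measured genes of the list, 2 were above 0 in 25% of the cells and 0 of these differed between the prefixes or the genotype labels by 1 or more. Over all genes under this filter 26.2% and 14.7% did so, and 2 genes are too few to read against these shares.

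Genes of c-Kit signalling made up another list. Of 15 measured genes, 11 were above 0 in 25% of the cells, and 2 were higher and 2 lower in prefix 051716 than in prefix 051816 by 1 or more, against 9.37% and 16.9% of all genes under this filter. Stat5b, a transcription factor of cytokine signalling, had a difference of 1.74, the kinase subunit gene Pik3ca 1.35, the adaptor gene Grb2 -1.80 and Ptpn6, which encodes the phosphatase Shp1, -1.56. The kinase gene Jak2 was found in 32 cells and had -0.64. Between genotype labels, 0 of the 11 were higher in the Ski-KO cells by 1 or more and 3 were lower, against 2.25% and 12.5% of all genes under this filter. These were Lyn, a Src-family kinase gene (-1.58), Ptpn6 (-1.33) and Stat5a (-1.09). Kit itself, at -0.72, did not reach that size.

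Among 11 genes of Cd45 partners and Src-family kinases, 5 passed the same filter. Ptprcap, which encodes a protein associated with Cd45, was found in more cells than Ptprc, in 27 of 27, 19 of 19 and 43 of 48. Its mean was 620 TPM in prefix 051716, 389 TPM in prefix 051816 and 366 TPM in the Ski-WT cells, and its difference between genotype labels was 1.34. Csk, the kinase that restrains Src-family kinases, had 1.23 and Lyn, named above, -1.58. Fyn, another kinase of the family, had 1.28 between the Ski-KO prefixes. Of the sialomucin genes, Cd164 was above 0 in 67 cells and had a difference between the prefixes of -1.91, opposite to Cd34, and Selplg was above 0 in 52 cells and had -1.26 between genotype labels. Spn, which encodes Cd43, was found in 73 cells. Of the class III receptor kinases, Csf1r was at 0 in all cells, and Kit and Flt3 were those above 0 in 25% of the cells.

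Of the markers of other cell types, 1 of 8 was higher and 2 of 8 were lower in prefix 051716 than in prefix 051816 by 1 or more, against 9.37% and 16.9% of all genes under the same filter. Of the 8 marker genes above 0 in 25% of the cells, Hbb-b2, a haemoglobin gene of the erythroid list, was higher in prefix 051716 by 1.52. Cd79b of the B cell list (-1.52) and Gp9 of the megakaryocyte list (-1.17) were lower. Car2 of the erythroid list had -0.18 and Pf4 of the megakaryocyte list 0.58, opposite in sign to Hbb-b2 and Gp9. The erythroid list had a summed median of 3146 TPM in prefix 051716 (87.5 to 8383 TPM), 2724 TPM in prefix 051816 (377 to 7999 TPM) and 3647 TPM in the Ski-WT cells (342 to 9844 TPM), most of it from Car2, which was above 0 in all 94 cells. The granulocyte and monocyte list had medians of 387, 256 and 519 TPM in the same order, with 0 as the lowest value of each and highest values of 4115, 2735 and 2687 TPM. The B cell list had a median of 0 TPM in all 3, with highest values of 252, 2614 and 908 TPM, and the megakaryocyte list medians of 2.70, 0.90 and 14.9 TPM, each with 0 as the lowest value and highest values of 3463, 6022 and 8317 TPM. Elane, Mpo and Csf1r were at 0 in all cells, as were all 3 genes of the NK cell list, while Prtn3 was above 0 in 66 cells and Lyz2 in 67, and in the T cell list Cd4 was at 0 in all cells. Lepr of the endothelial and stromal list was above 0 in 92 of 94 cells, but its mean was 4.23 TPM. It was at 5 TPM or more in 6 of 27, 2 of 19 and 10 of 48 cells of prefix 051716, prefix 051816 and Ski-WT. The part of other cell types in the member differences was not tested.

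The genes whose values ran most like those of a member were named by Pearson correlation over the 94 cells, after centring on prefix means, among 5464 other genes detected in 25% or more of the cells. For Cd34 these were Arid4a (0.45), Cab39 (0.43) and Serpinb1a (0.36), and for Flt3 2310033P09Rik (0.44), Cbl (0.42) and Mrpl27 (0.41). Those for Ly6a included Cdk12 (0.39) and Eef1a1 (0.39). For Kit they were Btg2 (0.37), Ccnl1 (0.37) and Vta1 (0.35), and for Ptprc Nr2c2 (0.38), Ap1s3 (0.36) and Cd37 (0.35). All these values are modest and are the highest among 5464. Of the 15 genes this rule selects, 5 stayed among the 3 highest by Spearman's rho and 2 in the Ski-WT cells alone, and 2310033P09Rik fell to place 510 by Spearman's rho.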

How the data were processed

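Per the labels' protocols, sorted cells went through the Fluidigm C1 system, SMARTer reverse transcription and a Nextera XT library kit. The submitters' processing notes list Bowtie2, RSEM and mm9 and give neither version nor role. The table deposited by the authors holds 1 log2 value per gene and cell, read from the values as log2(TPM + 1), since back-transformed cells sum to between 997625 and 999995. Depth is unknown.

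Genotype came from titles and prefix and position from descriptions. The main values were shares of cells above 0 and at 5 TPM or more with Clopper-Pearson intervals, and differences of mean log2(TPM + 1). A gene counted as differing at 1 or more on that scale. No model was fitted for the main values, and no p-value was computed. The alternative with a covariate was a least-squares fit on group and number of genes above 0. Members and lists were chosen with earlier results of these data known. From each list, the genes detected in 25% or more of the cells were counted, and up to 4 of highest mean TPM and the 2 of largest difference between the Ski-KO prefixes are named. For each member detected in 25% or more of the cells, up to 3 of the most correlated genes are named. Some genes that these rules select are not reported here. Other list genes and the printed promoters were picked after values were seen. Alternatives covered detection limits, pseudocounts, scaling, medians, single prefixes, a covariate and filters. Column position and leaving out the highest cell were added after seeing the data. No cell was filtered, no doublet caller was run. Functions were tested on simulated data. Tools were scipy 1.17.1, pandas 2.3.3 and numpy 2.4.6, run in Python 3.11.15, with figures by matplotlib 3.10.9.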

Additional observations from a re-analysis of the deposited data

How the results depend on the processing

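With 1 sample per genotype and an unknown depth, an absent transcript cannot be told from a missed one, and the counts of Slamf1, Flt3 and Cd48 rest on few cells. Leaving out replicates does not apply. No paired analysis was possible because the results come from no test. The number of cells with Kit, Ly6a, Slamf1 and Ptprc fell from 11 above 0 to 5 at 1 TPM, 5 at 5 TPM and 4 at 10 TPM. In Ski-KO cells it was 2, 2 and 1 at these limits and in Ski-WT cells 3, 3 and 3. With cells of at least the median number of genes it was 6 in all, 3 in Ski-KO and 3 in Ski-WT cells. The cell with Cd48 was lost at 5 and 10 TPM (0 cells). Of 21 shares of cells by gene and prefix, 1 left its binomial interval at 1 TPM, 6 at 5 TPM and 9 at 10 TPM.

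The difference between the Ski-KO prefixes (051716 minus 051816) stayed above 0 for Ly6a and Cd34 under all alternatives, but its size did not hold. For Ly6a (3.32) it was 4.59 with a pseudocount of 0.1, 2.10 with 10, 1.29 as the log2 ratio of mean TPM, 8.43 for medians, 0.95 over cells above 0 and 2.01 in columns 1 to 3. For Cd34 (2.35) it was 1.74 with a pseudocount of 10, 4.14 for medians and 5.30 in columns 1 to 3. For Flt3 (1.32) it was 2.27 with a pseudocount of 0.1, 0.55 with 10 and 0 for medians. The direction turned for Flt3 as the log2 ratio of mean TPM (-1.08), which became 3.94 without its highest cell, and over cells above 0 (-0.75). Of 145 alternatives for the members' differences, 114 stayed within 0.585 of the main value on the log2 scale or, given as a difference in shares of cells, did not turn a difference of 1 or more. The sign turned in 13 of the 145, of which 2 were the Flt3 values above and 11 concerned differences under 1. Pooled Ski-KO minus Ski-WT values also moved: as differences of medians they were -2.62 for Ly6a, -1.78 for Ptprc, 1.70 for Cd34 and 0 for Flt3, and Flt3 had 1.95 as the log2 ratio of mean TPM. Without a filter on low values, 6.67% of all genes differed by 1 or more between genotype labels and 12.96% between the Ski-KO prefixes. These shares were 8.72% and 16.9% with a 10% filter, and 18.4% and 31.4% with a 50% filter. Between genotype labels, 0 members differed by that much under any filter. Between the prefixes, 3 of 7 members did so without a filter, 3 of 6 with the 10% filter and 2 of 4 with the 50% filter. In columns 1 to 3 the difference between the Ski-KO prefixes also moved for Ptprc, from 0.47 to 3.47, and for Slamf1, from -0.18 to 1.97. The causes of these changes were not tested. The column and highest-cell settings were chosen after seeing the data.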
